A study of Mus musculus with 12 samples.

Results

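Macrophages of a tumour take up, store and release lipid, and 36 genes of these steps were followed here by bulk RNA-seq of sorted mouse macrophages. The genes were chosen by name with earlier results of these data known, and all 36 were found among the 24346 gene symbols of the deposited tables. Shares of lipid genes set beside all genes below are therefore descriptions and not tests of the list. The mice carried an Arg1-RFP reporter, in which a red fluorescent protein reads out arginase 1, and bore either B16F10 tumours, a melanoma line, or MC38 tumours, a colon carcinoma line. Tumour macrophages were sorted as F4/80(+), CD11b(+) and MHCII(+) CD45+ cells that lacked CD90.2, B220, NK1.1, Ly6G and Ly6C, and were then split by the reporter. The 4 groups are RFP(+) and RFP(-) macrophages of B16F10 tumours and RFP(+) and RFP(-) macrophages of MC38 tumours, written RFP+ and RFP- below, with 3 libraries each. All groups share the reporter allele and the sort, and the labels give no age, no strain and no treatment. Libraries carry the title numbers 12, 11 and 3 in B16F10 and 1, 2 and 3 in MC38, in both gates.

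Macrophages meet fatty acids and modified lipoproteins through scavenger receptors, and inside the cell fatty acid chaperones hand the acids on. Acyl-CoA synthetases activate them, acyltransferases esterify them with glycerol or cholesterol, and perilipins coat the droplets in which the esters are kept. Lipases open the droplets again, the lysosome releases cholesterol from engulfed lipoproteins, and the transporters ABCA1 and ABCG1 pass cholesterol to acceptors such as APOE under the control of the liver X receptors. Macrophages loaded in this way are often called lipid-associated and carry TREM2, a receptor that signals through the adaptor TYROBP.

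Levels are given in FPKM, in which the fragments of a gene are divided by the length of its transcript and by the size of the library, and differences are on the scale log2(FPKM + 1), with their standard error (SE). A gene is said to have risen or fallen where its Benjamini-Hochberg adjusted p from limma, computed over the 11808 genes that reached 1 FPKM in 3 or more libraries, was under 0.05. Of the 36 lipid genes 35 met that filter, and the exception was Ppard, a fatty acid receptor, at 0.272 to 0.519 FPKM. Differences of genes near 1 FPKM are understated on this scale. The title numbers marked pairs of libraries that deviated together, so values from a fit with the number as a replicate block are given where they changed a call.

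The libraries carried their labelled reporter difference. Arg1 averaged 724 ± 167 FPKM in RFP+ and 81.5 ± 38.2 FPKM in RFP- macrophages of B16F10, and 473 ± 79.7 FPKM in RFP+ and 51.7 ± 9.74 FPKM in RFP- macrophages of MC38 (SD, n = 3 each). All 10 macrophage markers were present in every group, but their summed level was 4559 to 10737 FPKM in the B16F10 libraries and 25161 to 35033 FPKM in the MC38 libraries. The 8 melanocytic markers (Mlana, Pmel, Tyr, Tyrp1, Dct, Sox10, Slc45a2 and Trpm1) summed to 8174 to 10722 FPKM in B16F10 and 5.29 to 11.3 FPKM in MC38. The B16F10 libraries also appeared shallower by their lowest FPKM steps. Relative to B16F10 RFP- number 3, a single read was worth 0.969 to 1.16 as many FPKM in B16F10 and 0.32 to 0.378 in MC38. This depth is inferred from the steps, since the scaling across libraries is not given. Genes at 0 numbered 8479 to 10597 in B16F10 and 8527 to 10081 in MC38, ranges that overlap. B16F10 RFP- number 12 stood apart, with the highest total (815591 FPKM, against 614875 to 699948 FPKM in the other 11) and the most genes at 0. Which animal gave which library is not stated, so p-values measure only the spread among these libraries, which may be technical. In bulk RNA, fewer cells of a type and less RNA per cell cannot be told apart.

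The 36 genes together held 1.64% to 2.55% of all FPKM in B16F10 and 3.07% to 5.19% in MC38. Most of that contrast was Apoe, the secreted apolipoprotein that accepts cholesterol, which made up 19.2% to 34.1% of the lipid gene sum in B16F10 and 60.4% to 74.9% in MC38. Without Apoe the sums were 8155 to 12028 FPKM in B16F10 and 6991 to 9825 FPKM in MC38, ranges that overlap. Of the 36 genes, 8 had their highest group mean in B16F10 RFP+, 10 in B16F10 RFP-, 14 in MC38 RFP+ and 4 in MC38 RFP-.

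**Figure D1:**
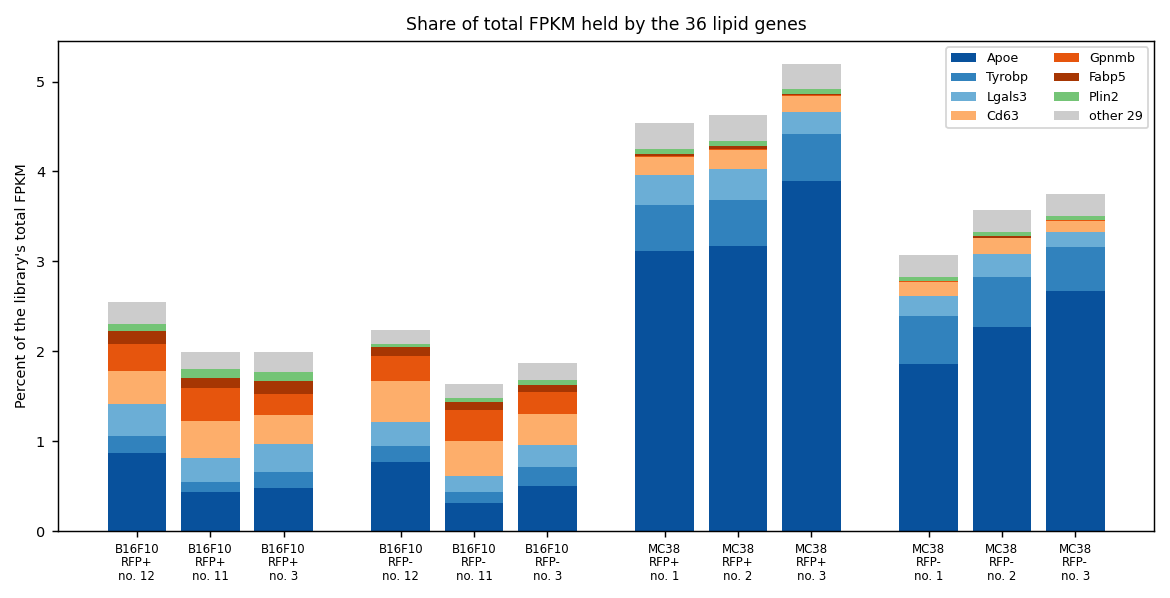
Percent of each library's total FPKM held by the 36 lipid genes, stacked, with 7 genes named and the other 29 pooled. The MC38 bars reach 3.07% to 5.19% and are mostly Apoe, while the B16F10 bars reach 1.64% to 2.55% with larger parts from Gpnmb, Cd63 and Fabp5.

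The first comparison asked how RFP+ differed from RFP- macrophages within B16F10 tumours. Cd36, the scavenger receptor that takes up long-chain fatty acids and oxidized lipoprotein, was the lipid gene that rose. It stood at 103, 105 and 99.1 FPKM in RFP+ libraries 12, 11 and 3, against 21.9, 33.7 and 48.9 FPKM in their RFP- partners. The RFP+ libraries lay close together and all above the scattered RFP- libraries. The log2 difference was 1.60 ± 0.27 (SE, n = 3 each, limma adjusted p = 0.0431, and 0.00191 with the replicate block). Cd36 thus accounted for 1 of 35 lipid genes past the threshold (2.86%), where 0.178% of all genes passed (0.127% rose and 0.0508% fell). The Cd36 call without the block was lost in 8 of 12 fits that left out a library: each RFP+ library of B16F10, B16F10 RFP- number 12, each RFP+ library of MC38 and MC38 RFP- number 1. In these 8 the adjusted p was 0.053 to 0.159, and the log2 difference was 1.31 without RFP- number 12. The call was also lost with a pseudocount of 0.1 (adjusted p = 0.055), without the filter (0.149), with libraries scaled to the macrophage markers (log2 1.45, adjusted p = 0.125) and with the B16F10 libraries fitted alone (0.405).

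With the replicate block 5 lipid genes passed in B16F10, 4 higher and 1 lower, where 1.36% of all genes passed (0.83% rose and 0.525% fell). Plin2, the perilipin that coats droplets in most cells outside fat, was 472, 617 and 600.4 FPKM in RFP+ and 348, 301 and 356 FPKM in RFP- libraries. Every RFP+ value exceeded every RFP- value, and the log2 difference of 0.74 ± 0.14 had a limma adjusted p of 0.0556, or 0.0158 with the block. Msr1, the class A scavenger receptor for modified lipoproteins, was 249.9, 131 and 222 FPKM in RFP+ and 93.8, 86.3 and 117 FPKM in RFP- libraries. These groups did not overlap either, although RFP+ number 11 came close (0.98 ± 0.20, limma adjusted p = 0.112 without and 0.00801 with the block). Without that library the difference was 1.26 (adjusted p = 0.00589). Of the 12 fits without the block that left out a library, Msr1 passed in that 1 alone. In the other 11 its limma adjusted p was 0.0769 to 0.468.

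Fabp4, a fatty acid chaperone shared by macrophages and fat cells, was 27.1, 19.3 and 30.8 FPKM in RFP+ and 10.3, 7.27 and 13.5 FPKM in RFP- libraries of B16F10. All RFP+ libraries were above all RFP- libraries, at a log2 difference of 1.25 ± 0.34 (limma adjusted p = 0.275, and 0.0259 with the block). Dgat2, an enzyme of the last step of triglyceride synthesis, was the member that went the other way. It read 2.77, 2.67 and 2.75 FPKM in RFP+ and 7.16, 4.69 and 7.15 FPKM in RFP- libraries, with tight RFP+ values below every RFP- value. The log2 difference was -0.96 ± 0.22 (limma adjusted p = 0.19, and 0.0369 with the block), and -1.13 without RFP- number 11 (adjusted p = 0.0432). Of the 12 fits without the block that left out a library, Dgat2 passed in that 1 alone. In the other 11 its limma adjusted p was 0.173 to 0.509. Leaving out the number 12 pair, a fit added after the data were seen, ended the block calls of Fabp4 (adjusted p = 0.0945) and Dgat2 (adjusted p = 0.102) and kept those of Cd36, Plin2 and Msr1 (adjusted p = 0.00349, 0.00167 and 0.00489). Nr1h3, the gene of liver X receptor alpha, passed in that fit (-1.08, adjusted p = 0.0368), so that 4 of 35 lipid genes did (11.4%), where 1.38% of all genes did.

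Groups that did not overlap were counted next. In B16F10, 8 of 35 were above in every RFP+ library (22.9%, where 5.72% of all genes were), namely Cd36, Fabp4, Plin2, Msr1, the tetraspanin Cd9, the cholesterol exporter Abca1, the lysosomal cholesterol carrier Npc1 and the acyl-CoA synthetase Acsl1. Dgat2 was the 1 gene below in every RFP+ library (2.86%, where 6.22% of all genes were). The median log2 difference was 0.08 over the 35 lipid genes and -0.01 over all genes tested.

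The promoters of Cd36 and Plin2, both of which passed with the block, are shown with the nuclear receptor core motif AGGTCA (read on the other strand as TGACCT) and the E-box CACGTG in capitals. Each is a window that runs from 250 bases before to 50 bases after the RefSeq start, on the gene's own strand, from RefSeq on GRCm38.p6. The Cd36 window is chr5:17835847-17836146 on the minus strand, with the core motif 228 bases before the start. In the GENCODE vM21 annotation the Cd36 gene runs to base 17888801, upstream of this window, which therefore does not cover its outermost start. The Plin2 window is chr4:86670010-86670309 on the minus strand, with the core motif 218 bases before the start. Its E-box begins 4 bases before the start and runs over it.
Cd36: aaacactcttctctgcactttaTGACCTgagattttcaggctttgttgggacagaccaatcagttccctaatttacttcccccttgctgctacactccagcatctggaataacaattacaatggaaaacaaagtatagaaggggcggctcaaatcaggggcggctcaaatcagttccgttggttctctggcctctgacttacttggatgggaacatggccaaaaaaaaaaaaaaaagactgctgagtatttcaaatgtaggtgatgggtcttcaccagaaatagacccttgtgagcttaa
Plin2: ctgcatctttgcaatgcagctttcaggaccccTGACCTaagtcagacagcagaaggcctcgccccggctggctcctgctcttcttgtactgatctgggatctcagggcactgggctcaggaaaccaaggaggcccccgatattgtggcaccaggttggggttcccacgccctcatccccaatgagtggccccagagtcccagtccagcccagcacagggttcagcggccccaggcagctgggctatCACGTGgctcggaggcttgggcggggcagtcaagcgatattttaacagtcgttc
Windows were matched for 26 of the 36 genes (35 windows, since some genes have several starts). The core motif AGGTCA, searched on both strands, was in 8 of these 35 windows, those of Cd36, Plin2, Trem2, Olr1, Cpt1a, Rxra and Pparg (22.9%, against 16.3% of all 32851 windows). As a direct repeat with 1 base between (DR1) or 4 bases between (DR4) it was in 0 of the 35, against 0.04% and 0.015% of all windows. The E-box was in 4 windows, those of Plin2, Abca1, Lipe and Mgll (11.4%, against 7.15% of all windows). A match is a description of letters and not a site.

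Other lipid genes of B16F10 macrophages passed in neither fit. The 30 of them had log2 differences from -0.85 to 0.91, 15 of each sign. Their smallest limma adjusted p was 0.426, and with the block it was 0.0622. The largest, among those that averaged at least 5 FPKM, were Abca1 (0.91 ± 0.29), the liver X receptor alpha gene Nr1h3 (-0.85 ± 0.29), the lipoprotein lipase gene Lpl (0.79 ± 0.46) and the hormone-sensitive lipase gene Lipe (-0.74 ± 0.30). Abca1 was 18.1, 7 and 5.66 FPKM in RFP+ and 3.72, 4.82 and 4.56 FPKM in RFP- libraries, with most of its mean difference in the number 12 pair. Nr1h3, which drives Abca1 in response to oxysterols, was 10.4, 4.81 and 5.48 FPKM in RFP+ and 13.9, 8.21 and 17.3 FPKM in RFP- libraries, lower in 3 of 3 pairs while the groups overlapped.

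Markers of other cells were read beside these genes, and their part in the results was not tested. Melanocytic markers summed to 8294, 10722 and 8174 FPKM in RFP+ and 9642, 10721 and 8195 FPKM in RFP- libraries of B16F10. Dendritic cell markers summed to 8.58, 16.1 and 7.58 FPKM in RFP+ and 14.4, 49.7 and 38.3 FPKM in RFP- libraries, lower in 3 of 3 pairs. Neutrophil markers ran from 50.1 to 366 FPKM in RFP+ and from 32.9 to 841 FPKM in RFP- libraries. Fabp4, Cd36 and Lpl are also genes of fat cells, and the 8 adipocyte markers summed to at most 0.131 FPKM in B16F10, with Adipoq at 0 in all RFP+ libraries. Cd36 is also a gene of platelets and capillaries: the 8 platelet markers summed to 0.282 to 3.54 FPKM in RFP+ and 0.0931 to 1.36 FPKM in RFP- libraries, and the 8 endothelial markers to 1.47 to 5.18 FPKM in RFP+ and 1.07 to 4.24 FPKM in RFP- libraries. Both sums were higher in RFP+ in 3 of 3 pairs of B16F10, as the platelet sum was in 3 of 3 pairs of MC38.

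**Figure D2:**
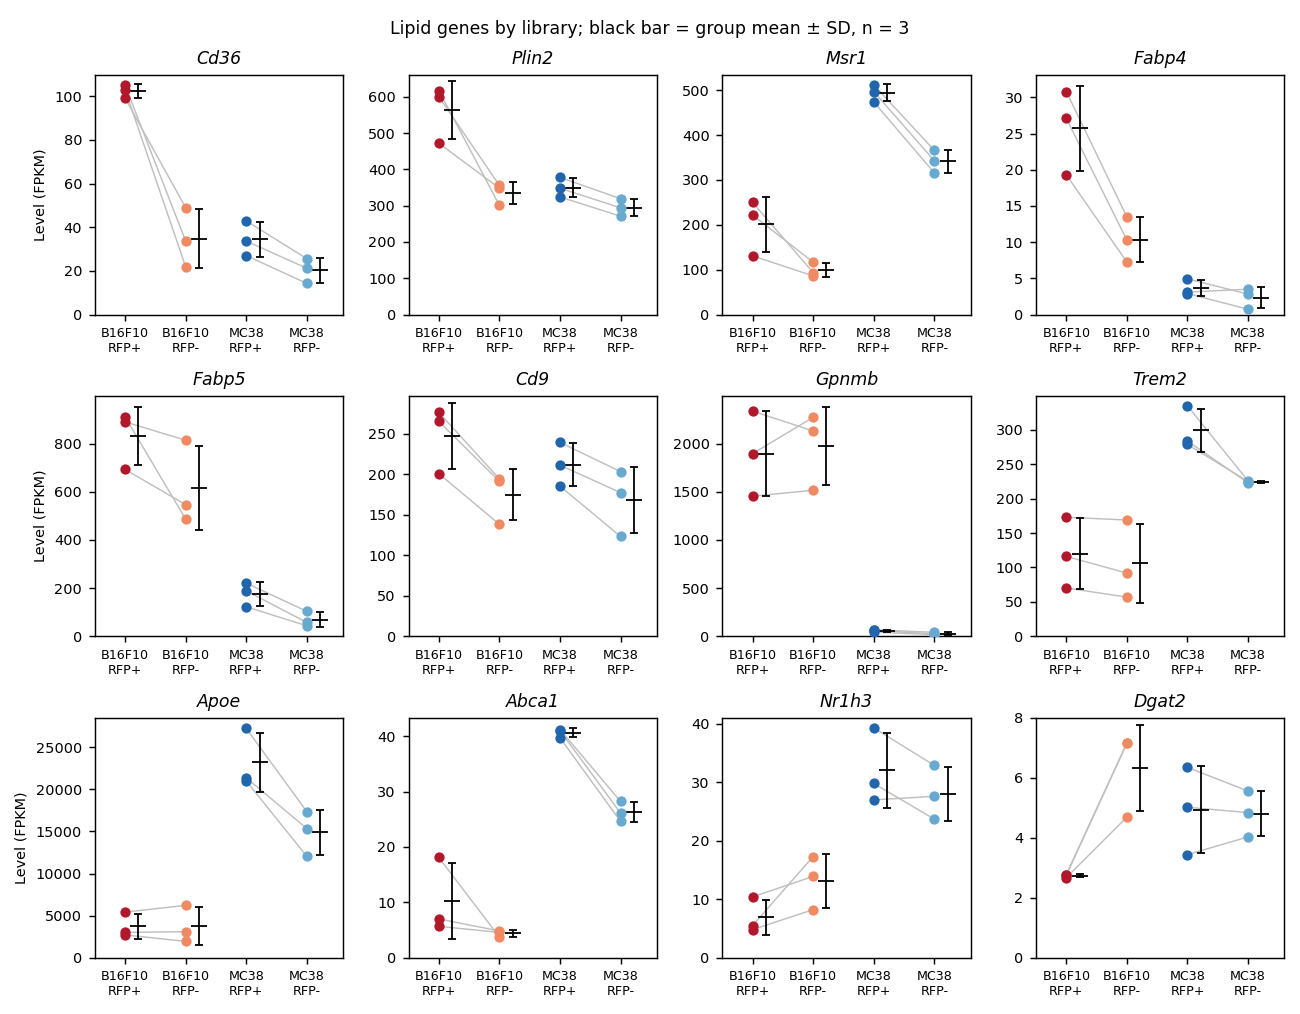
FPKM of 12 lipid genes in each library (points), with grey lines joining libraries of the same title number and black bars for the group mean and SD (n = 3). Cd36, Plin2, Msr1 and Fabp4 are higher in B16F10 RFP+ than in RFP- libraries without overlap, Dgat2 is lower, and Gpnmb and Apoe differ mainly between the tumours.

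The same comparison within MC38 tumours gave another leading pair. Fabp5, the fatty acid chaperone best known from skin and macrophages, was 188, 220.4 and 122 FPKM in RFP+ libraries 1, 2 and 3, against 56.9, 103 and 43 FPKM in their RFP- partners. No values overlapped, and the log2 difference was 1.43 ± 0.30 (SE, n = 3 each, limma adjusted p = 0.146, and 0.00534 with the replicate block). Gpnmb, a glycoprotein of lysosomes in lipid-laden macrophages and of melanosomes, was 41.5, 66 and 60 FPKM in RFP+ and 16.1, 39.8 and 23.9 FPKM in RFP- libraries. Its lowest RFP+ value lay just above its highest RFP- value (1.11 ± 0.29, limma adjusted p = 0.423 without and 0.00986 with the block).

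Without the block 0 of 35 lipid genes passed in limma in MC38, where 0.0254% of all genes did, and 6 had an unadjusted p under 0.05, against 3.35% of all genes. With the block Fabp5 and Gpnmb were the 2 that passed, where 0.44% of all genes did (0.356% rose and 0.0847% fell). The fit without the number 12 pair, which removes no MC38 library and changes the shared spread, passed 9 of 35 lipid genes (25.7%), all higher, where 1.16% of all genes passed. Among them were Cd36 (adjusted p = 0.0254), Apoe (0.026) and Abca1 (0.0372).

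Separation without a test call was frequent in MC38. Of 35 lipid genes 12 were above in every RFP+ library (34.3%, where 6.33% of all genes were): Cd36, Msr1, Fabp5, Gpnmb, Trem2, Cd63, Plin2, Npc1, Npc2, Soat1, Apoe and Abca1. Another 3 were below in every RFP+ library (8.57%, where 4.98% of all genes were): Scarb1, the receptor for high-density lipoprotein, Acsl4, a synthetase that prefers arachidonic acid, and Lipe. The median log2 difference was 0.16 over the lipid genes and 0.00 over all genes, and 25 of the 35 were positive, against 50.4% of all genes. With libraries scaled to the macrophage markers 18 of the 35 were positive, against 36.8% of all genes.

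Genes of cholesterol efflux were among the separated ones of MC38. Apoe was 20989.5, 21369.7 and 27241 FPKM in RFP+ and 12036, 15337 and 17346 FPKM in RFP- libraries, the highest level of any lipid gene (0.64 ± 0.37, limma adjusted p = 1 without and 0.303 with the block). Abca1 was 41.2, 41 and 39.7 FPKM in RFP+ and 28.2, 26.1 and 24.6 FPKM in RFP- libraries, with little spread inside either group (0.61 ± 0.29, limma adjusted p = 1 without and 0.828 with the block). Neither passed, and the same holds for Cd36 (0.75 ± 0.27) and Pparg (-0.59 ± 0.30), the nuclear receptor that raises Cd36 and Fabp4 in many cells. Pparg was 11, 6.35 and 13.6 FPKM in RFP+ and 16.9, 11 and 19.4 FPKM in RFP- libraries, lower in 3 of 3 pairs. All 33 lipid genes that passed in neither fit had log2 differences from -0.59 (Pparg) to 0.75 (Cd36). In MC38 the adipocyte markers summed to at most 0.32 FPKM, and the dendritic cell markers to 25.1, 37.7 and 14.7 FPKM in RFP+ against 35.8, 66.9 and 25.7 FPKM in RFP- libraries. Their part in these values was not tested.

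**Figure D3:**
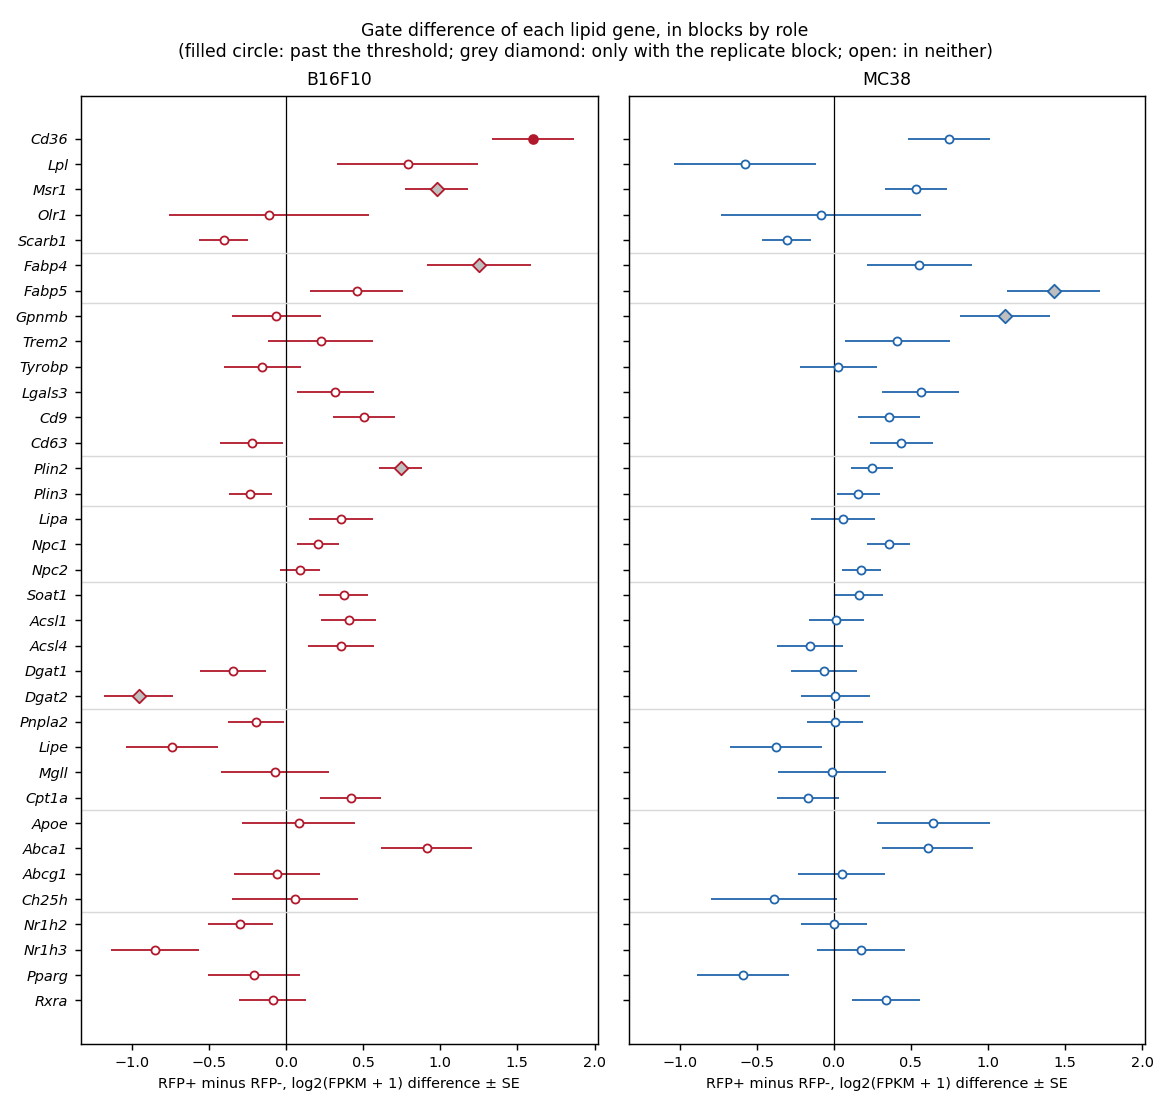
RFP+ minus RFP- difference of 35 lipid genes on the log2(FPKM + 1) scale with its SE, in B16F10 (left) and MC38 (right), in blocks from receptors at the top to nuclear receptors at the bottom. Filled circles passed without the block (Cd36 in B16F10), grey diamonds passed with the replicate block alone, and open circles passed in neither.

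The RFP+ difference was next averaged over both tumours. Cd36 (log2 1.17 ± 0.19, limma adjusted p = 0.016), Msr1 (0.76 ± 0.14, adjusted p = 0.0413) and Plin2 (0.50 ± 0.10, adjusted p = 0.0474) rose, 3 of 35 genes (8.57%), where 0.449% of all genes passed (0.339% rose and 0.11% fell). Each was higher in 6 of 6 pairs. With the replicate block 7 rose, where 1.92% of all genes passed (1.32% rose and 0.601% fell). They were the same 3 and Fabp4 (0.90, adjusted p = 0.0191), Fabp5 (0.94, adjusted p = 0.00186), Gpnmb (0.52, adjusted p = 0.0249) and Cd9 (0.43, adjusted p = 0.0195). Without the block these 4 had limma adjusted p of 0.213, 0.0937, 0.573 and 0.424. With the block and without the number 12 pair 12 of 35 passed (34.3%), where 2.77% of all genes did.

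Single libraries mattered for the calls without the block. Plin2 and Msr1 each passed in 2 of 12 fits with a library left out, and Cd36 passed in 10, all but those without MC38 RFP+ number 1 (adjusted p = 0.0534) or number 2 (adjusted p = 0.0662). Over all 12 fits the log2 differences were 1.03 to 1.31 for Cd36, 0.46 to 0.56 for Plin2 and 0.66 to 0.90 for Msr1. Plin2 kept its call without B16F10 RFP+ number 12 or RFP- number 12, and Msr1 kept it without B16F10 RFP+ number 11 or RFP- number 3. Fabp5 gained a call without MC38 RFP- number 2 (1.12, adjusted p = 0.0252) and did not pass in the other 11 fits (limma adjusted p = 0.0709 to 0.297). After scaling every library to the macrophage markers, which moved the median of all genes by -0.16 in B16F10 and -0.07 in MC38, Cd36, Msr1 and Plin2 had log2 differences of 1.05, 0.64 and 0.37 (adjusted p = 0.111, 0.223 and 0.984). Each of the 3 stayed higher and none passed.

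The 6 pairs can also be read gene by gene. Of the 35 lipid genes 10 were higher in RFP+ in 6 of 6 pairs (28.6%, where 4.52% of all genes were). They were the receptors Cd36 and Msr1, the chaperone Fabp5, the droplet coat Plin2, the lipid-associated macrophage genes Trem2, Lgals3 (galectin 3) and Cd9, the exporter Abca1, Npc1 and Soat1, which esterifies cholesterol. Lipe was lower in 6 of 6 pairs, the 1 such gene (2.86%, where 4.01% of all genes were). It was 1.85, 1.03 and 2.57 FPKM in RFP+ and 5.29, 1.83 and 4.39 FPKM in RFP- libraries of B16F10. In MC38 it was 6.03, 6.94 and 6.84 FPKM in RFP+ and 8.06, 7.41 and 11.5 FPKM in RFP- libraries, and its mean difference did not pass (-0.56 ± 0.21, limma adjusted p = 0.546, and 0.102 with the block).

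Among genes that passed in neither fit and averaged at least 5 FPKM, the largest mean differences were those of Abca1 (0.76 ± 0.21, limma adjusted p = 0.243), Lipe, Lgals3 (0.44 ± 0.18, adjusted p = 0.578) and Pparg (-0.40 ± 0.21, adjusted p = 0.717). Trem2 was 173, 70.1 and 116 FPKM in RFP+ and 169, 56.8 and 91.8 FPKM in RFP- libraries of B16F10, where its values followed the title number more than the gate. In MC38 it was 284, 279 and 335 FPKM in RFP+ and 223, 225 and 226 FPKM in RFP- libraries, without overlap. Its partner Tyrobp was higher in RFP+ in 2 of 6 pairs (log2 -0.06 ± 0.18, limma adjusted p = 0.939).

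Whether the RFP+ difference itself differed between the tumours was tested as the B16F10 difference minus the MC38 difference. In limma 0 of 35 lipid genes passed in either fit, where 0% of all genes did without the block and 0.0339% with it (0.0254% higher and 0.00847% lower). Without the block 7 had an unadjusted p under 0.05, against 3.85% of all genes. The smallest adjusted p among them was 0.895, or 0.149 with the block, which belonged to Gpnmb. Among genes that averaged at least 5 FPKM, the largest values were those of Lpl (1.36 ± 0.65), Gpnmb (-1.17 ± 0.41), Nr1h3 (-1.03 ± 0.40) and Fabp5 (-0.97 ± 0.43). Cd36, called in B16F10 and not in MC38, had a difference of 0.85 ± 0.38 (limma adjusted p = 0.895, and 0.515 with the block), so it is not shown to differ between the tumours. Fabp5 was 890.4, 693 and 911 FPKM in RFP+ and 814, 546 and 486 FPKM in RFP- libraries of B16F10, higher in 3 of 3 pairs as in MC38.

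The levels of the remaining lipid genes complete the set, as means ± SD of 3 libraries. The secreted and membrane proteins that mark lipid-associated macrophages were the most abundant of them. Lgals3 averaged 1934 ± 299 FPKM in RFP+ and 1599 ± 541 FPKM in RFP- of B16F10, and 2069.9 ± 308 FPKM in RFP+ and 1419.9 ± 357 FPKM in RFP- of MC38. Cd63 averaged 2302 ± 281 FPKM in RFP+ and 2751 ± 833 FPKM in RFP- of B16F10, and 1362 ± 135 FPKM in RFP+ and 1011 ± 163 FPKM in RFP- of MC38. Cd9 was lower, at 247 ± 40.9 FPKM in RFP+ and 174 ± 31.4 FPKM in RFP- of B16F10, and 212 ± 27 FPKM in RFP+ and 167 ± 40.6 FPKM in RFP- of MC38. In the lysosome, Lipa averaged 110.4 ± 25.3 FPKM in RFP+ and 86.9 ± 26.4 FPKM in RFP- of B16F10, and 139 ± 17.2 FPKM in RFP+ and 133 ± 5.86 FPKM in RFP- of MC38, overlapping between the gates in both tumours. Npc2 averaged 115 ± 4.08 FPKM in RFP+ and 109 ± 15.8 FPKM in RFP- of B16F10, and 297 ± 13.2 FPKM in RFP+ and 263 ± 21.6 FPKM in RFP- of MC38, while Npc1 had group means of 11.9 to 15.5 FPKM. Scarb1 averaged 63.9 ± 6.25 FPKM in RFP+ and 86.2 ± 20.6 FPKM in RFP- of B16F10, and 32.2 ± 2.02 FPKM in RFP+ and 39.9 ± 1.28 FPKM in RFP- of MC38. Among esterifying enzymes, group means ran from 42.4 to 63 FPKM for Soat1 and from 30 to 39.8 FPKM for Dgat1. Acsl1 averaged 8.21 ± 0.869 FPKM in RFP+ and 5.96 ± 0.774 FPKM in RFP- of B16F10, and 37.3 ± 7.52 FPKM in RFP+ and 36.6 ± 4.93 FPKM in RFP- of MC38, and Acsl4 had group means of 9.55 to 12 FPKM in B16F10 and 24.9 to 27.9 FPKM in MC38. Pnpla2, the gene of the lipase ATGL that opens the droplet, had group means of 17.9 to 21 FPKM and passed in no comparison. Abcg1 had group means of 8.57 to 8.78 FPKM in B16F10 and 27.9 to 29 FPKM in MC38. The receptor genes Nr1h2 and Rxra had group means of 30.9 to 47 FPKM and 2.56 to 4.22 FPKM.

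The other main axis of these values was the tumour. B16F10 minus MC38 was tested within RFP+ and within RFP- macrophages. In both comparisons tumour line, inferred sequencing depth, melanocytic RNA and some other marker sums move together and cannot be told apart. The 8 fibroblast markers summed to 48.3 to 64.8 FPKM in MC38, mostly Dcn and Col3a1, and to 1.87 to 3.71 FPKM in B16F10. Some of them, such as Lum, were higher in B16F10. The 7 epithelial markers summed to 6.36 to 12.3 FPKM in MC38, mostly Cdh1, and to 0.267 to 2.31 FPKM in B16F10. Their part in the tumour differences was not tested. As deposited, the chaperones and droplet coats were among the genes higher in B16F10, and the efflux and acyl-CoA synthetase genes among the lower ones. Most of the lower values turned under a scaling to macrophage markers, with values given after the genes. In RFP+ macrophages 10 of 35 lipid genes rose and 14 fell, where 35.2% of all genes rose and 20% fell. In RFP- macrophages 11 rose and 15 fell, where 37.8% of all genes rose and 21.9% fell. The medians were -0.13 and 0.03 over the lipid genes, in RFP+ and RFP-, and 0.23 over all genes in both gates. With the block 24 passed in RFP+ (54.9% of all genes, 34.9% higher and 20% lower) and 25 in RFP- (59.6% of all genes, 37.6% higher and 22% lower). Groups did not overlap for 11 higher and 14 lower genes in RFP+ (43.9% and 24.8% of all genes) and for 9 higher and 15 lower genes in RFP- (39.2% and 22.8% of all genes).

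Gpnmb had the largest difference between the tumours. It was 1895, 2337 and 1453 FPKM in RFP+ and 2272, 2131 and 1515 FPKM in RFP- libraries of B16F10, with the MC38 values between 16.1 and 66 FPKM. Every B16F10 library exceeded every MC38 library by a wide margin (log2 5.06 ± 0.29 in RFP+, limma adjusted p = 2.12e-08, and 6.23 ± 0.29 in RFP-, adjusted p = 3.06e-09). Gpnmb and the tetraspanin Cd63 are also abundant in pigment cells, and the melanocytic markers given above were higher in the same libraries. Their part in these differences was not tested.

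The promoters of Gpnmb and of the exporter Abca1 are shown with the AP-1 motif TGACTCA and the E-box CACGTG in capitals. Both are again on the gene's own strand, from RefSeq on GRCm38.p6. Abca1 had a negative difference in both gates under each scaling tried, as had Acsl1 and Olr1. With macrophage marker scaling it did not pass, at -0.08 in RFP+ and -0.38 in RFP- (limma adjusted p = 0.828 and 0.317). The Gpnmb window is chr6:49036268-49036567 on the plus strand, with the AP-1 motif 9 bases after the RefSeq start. In the GENCODE vM21 annotation the gene starts at base 49036546, so there the motif lies before the start. The Abca1 window is chr4:53159846-53160145 on the minus strand, with the E-box 147 bases before the start.
Gpnmb: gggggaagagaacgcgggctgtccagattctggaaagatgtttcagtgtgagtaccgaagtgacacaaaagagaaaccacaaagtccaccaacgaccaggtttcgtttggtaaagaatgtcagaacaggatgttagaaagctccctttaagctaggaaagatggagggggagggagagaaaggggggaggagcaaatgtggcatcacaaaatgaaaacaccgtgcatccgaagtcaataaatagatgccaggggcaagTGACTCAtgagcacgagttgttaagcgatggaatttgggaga
Abca1: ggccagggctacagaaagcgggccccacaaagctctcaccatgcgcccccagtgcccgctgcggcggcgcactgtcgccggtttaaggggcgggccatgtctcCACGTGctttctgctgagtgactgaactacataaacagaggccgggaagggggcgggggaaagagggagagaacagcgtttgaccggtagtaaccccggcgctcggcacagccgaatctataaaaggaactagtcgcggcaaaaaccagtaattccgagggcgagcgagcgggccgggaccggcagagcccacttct
The AP-1 motif, searched on both strands, was in 2 of the 35 windows, those of Gpnmb and Olr1 (5.7%, against 5.2% of all windows).

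Receptors of uptake split between the tumours. Cd36 rose in B16F10 in both gates, by log2 1.57 ± 0.27 in RFP+ (limma adjusted p = 0.000274) and 0.71 ± 0.27 in RFP- (adjusted p = 0.0349, with overlapping groups). The RFP- call was lost without B16F10 RFP- number 11 (0.70, adjusted p = 0.0652) or number 3 (0.44, adjusted p = 0.163), and without MC38 RFP- number 1 (0.76, adjusted p = 0.0569) or number 3 (0.49, adjusted p = 0.156). Lpl, the enzyme that frees fatty acids from circulating lipoproteins, averaged 66.6 ± 29.6 FPKM in B16F10 and 8.87 ± 3.6 FPKM in MC38 RFP+ macrophages, and 37.4 ± 17.6 and 14.2 ± 7.21 FPKM in the RFP- macrophages of the same tumours. It rose by 2.73 ± 0.46 and 1.37 ± 0.46 (limma adjusted p = 0.000236 and 0.0203). In RFP- its call was lost without B16F10 number 3 (1.02, adjusted p = 0.0912) or MC38 number 3 (0.96, adjusted p = 0.0989). Scarb1 rose as well, by 0.96 ± 0.16 and 1.07 ± 0.16 (adjusted p = 0.000199 and 7.74e-05).

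The other scavenger receptors ran the other way. Msr1 was 131 to 249.9 FPKM in B16F10 and 474 to 512 FPKM in MC38 RFP+ libraries, and 86.3 to 117 against 316 to 366 FPKM in RFP- libraries. It fell by 1.34 ± 0.20 and by 1.79 ± 0.20 on the log2 scale (limma adjusted p = 9.83e-05 and 7.61e-06), as deposited. Olr1, the lectin-like receptor for oxidized lipoprotein, was at most 2.45 FPKM in B16F10 and 1.85 to 14.5 FPKM in MC38, with log2 differences of -1.79 ± 0.65 in RFP+ and -1.77 ± 0.65 in RFP- (adjusted p = 0.0316 and 0.031). Its RFP+ groups overlapped. The RFP+ call was lost without B16F10 number 12 (-1.56, adjusted p = 0.0994) or 3 (-1.46, adjusted p = 0.113) or MC38 number 3 (-1.04, adjusted p = 0.158). The RFP- call was lost without the same numbers, B16F10 number 12 (-1.70, adjusted p = 0.077) or 3 (-1.40, adjusted p = 0.113) or MC38 number 3 (-1.33, adjusted p = 0.126).

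Chaperones and droplet coats were higher in B16F10. Fabp4 rose by 2.52 ± 0.34 in RFP+ and 1.83 ± 0.34 in RFP- (limma adjusted p = 3.76e-05 and 0.000443), and Fabp5 by 2.26 ± 0.30 and 3.23 ± 0.30 (adjusted p = 3.52e-05 and 1.39e-06). Plin3, a perilipin that sits on new droplets, averaged 107 ± 12.9 FPKM in B16F10 and 31.6 ± 1.96 FPKM in MC38 RFP+ macrophages, and 126 ± 13.2 and 28.3 ± 3.6 FPKM in the RFP- macrophages of the same tumours (log2 1.73 ± 0.14 and 2.12 ± 0.14, adjusted p = 4.94e-07 and 7.41e-08). Plin2 rose in RFP+ (0.68 ± 0.14, adjusted p = 0.00104) and did not pass in RFP- (0.18 ± 0.14, adjusted p = 0.268), where its sign turned under quantile normalization. The difference of 0.49 between these values is the interaction tested above, which did not pass.

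In the TREM2 group, Trem2 and Tyrobp fell in B16F10 and Cd63 rose. Tyrobp averaged 1008 ± 239 FPKM in B16F10 and 3530.1 ± 138 FPKM in MC38 RFP+ macrophages (log2 -1.84 ± 0.25, limma adjusted p = 4.08e-05), and the RFP- difference was -1.65 ± 0.25 (adjusted p = 8.51e-05). Trem2 fell by 1.40 ± 0.34 in RFP+ and by 1.22 ± 0.34 in RFP- (adjusted p = 0.00341 and 0.00749). Cd63 rose by 0.75 ± 0.20 and 1.42 ± 0.20 (adjusted p = 0.00696 and 6.13e-05). Lgals3 and Cd9 passed in neither gate.

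The efflux genes fell in B16F10. Apoe averaged 3709 ± 1482 FPKM in B16F10 and 23200.2 ± 3505 FPKM in MC38 RFP+ macrophages, and 3749 ± 2217 and 14906 ± 2681 FPKM in the RFP- macrophages of the same tumours. No library of B16F10 reached any of MC38 (log2 -2.70 ± 0.37 and -2.14 ± 0.37, limma adjusted p = 4.08e-05 and 0.000242). Abca1 fell by 2.05 ± 0.29 and by 2.35 ± 0.29 (adjusted p = 6.68e-05 and 1.8e-05), the related exporter Abcg1 by 1.71 ± 0.28 and by 1.60 ± 0.28 (adjusted p = 0.000196 and 0.00029), and Ch25h, which makes 25-hydroxycholesterol, by 1.53 ± 0.41 and by 1.98 ± 0.41 (adjusted p = 0.00617 and 0.001). Nr1h3 fell with them, by 2.11 ± 0.29 and by 1.08 ± 0.29 (adjusted p = 4.09e-05 and 0.0054), while its relative Nr1h2 passed in RFP- (0.54 ± 0.21, adjusted p = 0.043, and 0.0523 with the block) and read 0.24 ± 0.21 in RFP+ (adjusted p = 0.36). Rxra, the partner of these receptors, rose in RFP- (0.58 ± 0.22, adjusted p = 0.034) and read 0.16 ± 0.22 in RFP+ (adjusted p = 0.556). Nr1h2 lost its call in 9 of 12 fits with a library left out (adjusted p = 0.0541 to 0.167), all but those without B16F10 RFP+ number 11, B16F10 RFP- number 11 or MC38 RFP- number 2, and its difference was 0.27 without B16F10 RFP- number 12. Rxra lost its call without B16F10 RFP- number 12 (0.54, adjusted p = 0.069) or number 11 (0.54, adjusted p = 0.0765) or MC38 RFP- number 1 (0.34, adjusted p = 0.177).

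Enzymes of activation, lipolysis and lysosomal release were mixed. Acsl1 fell by 2.04 ± 0.18 in RFP+ and by 2.43 ± 0.18 in RFP- (limma adjusted p = 8.83e-07 and 1.67e-07), and Acsl4 by 1.0 ± 0.21 and by 1.51 ± 0.21 (adjusted p = 0.00146 and 5.12e-05). Npc2, the soluble lysosomal cholesterol carrier, fell by 1.36 ± 0.13 and by 1.27 ± 0.13 (adjusted p = 1.68e-06 and 2.66e-06). Lipe fell by 1.47 ± 0.30 and by 1.10 ± 0.30 (adjusted p = 0.00099 and 0.00608). Mgll, the monoacylglycerol lipase that ends triglyceride breakdown, was 3.11 to 12 FPKM in every B16F10 library and at most 0.0526 FPKM in every MC38 library (log2 2.97 ± 0.35 and 3.04 ± 0.35, adjusted p = 1.2e-05 and 8.51e-06).

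A smaller number of lipid genes passed in 1 gate. Dgat2 fell in RFP+ (-0.64 ± 0.22, limma adjusted p = 0.0269) and read 0.33 ± 0.22 in RFP- (adjusted p = 0.225). Its RFP+ call was lost without any 1 of the B16F10 RFP+ libraries (adjusted p = 0.0582 to 0.0633), without MC38 RFP+ number 1 (-0.47, adjusted p = 0.124) and without number 2 (-0.61, adjusted p = 0.071). The acid lipase gene Lipa fell in RFP- (-0.65 ± 0.21, adjusted p = 0.0155) and read -0.35 ± 0.21 in RFP+ (adjusted p = 0.164), with its call lost without B16F10 RFP- number 12 (-0.55, adjusted p = 0.0522) or 11 (-0.52, adjusted p = 0.0587). Soat1 fell in RFP- too (-0.42 ± 0.16, adjusted p = 0.0363), with overlapping groups, and lost its call without B16F10 RFP- number 12 or 11 or MC38 RFP- number 2 or 3 (-0.40 to -0.32, adjusted p = 0.086 to 0.116). Together 22 genes passed in both gates, each with the same sign, where 55.2% of all genes passed in RFP+ and 59.7% in RFP-. The share of all genes that passed in both was not counted, so the 22 are not read as a trait of the lipid genes. Another 2 passed in RFP+ alone (Plin2 and Dgat2) and 4 in RFP- alone (Lipa, Nr1h2, Rxra and Soat1). These differences between gates are those of the interaction test, which none passed. Among genes that passed in neither gate were Pparg (-0.29 ± 0.30 and -0.66 ± 0.30), the triglyceride enzyme gene Dgat1 (0.31 ± 0.22 in RFP-) and Cpt1a, the gate to fatty acid oxidation in mitochondria (0.33 ± 0.20 and -0.25 ± 0.20).

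**Figure D4:**
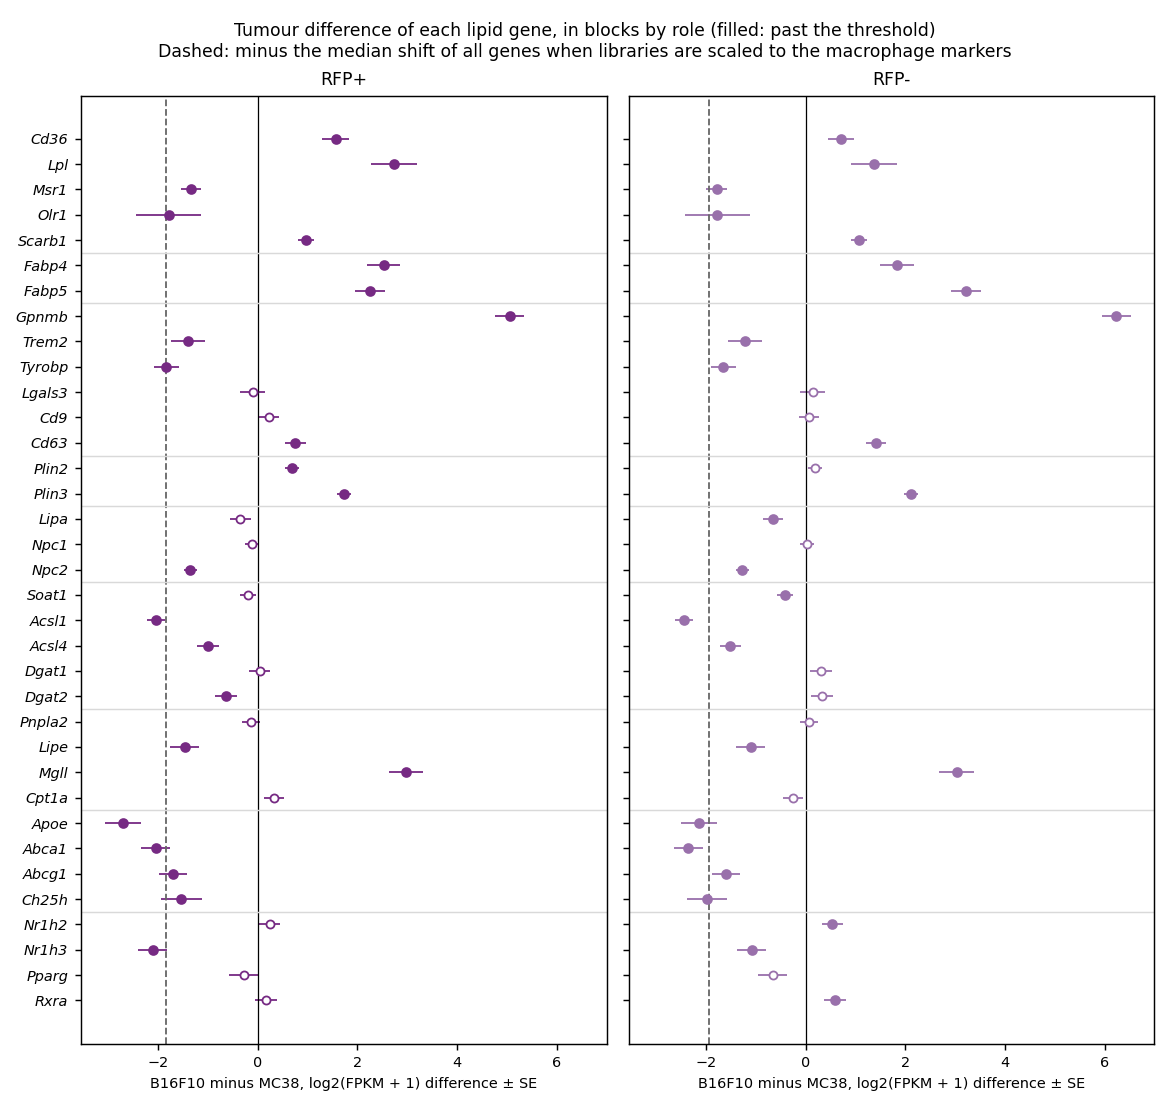
B16F10 minus MC38 difference of 35 lipid genes on the log2(FPKM + 1) scale with its SE, within RFP+ (left) and RFP- (right), filled where past the threshold. The dashed line lies 1.85 below 0 in RFP+ and 1.94 below 0 in RFP-, the shift of the median of all genes when libraries are scaled to the macrophage markers. Single genes shift by other amounts, so a gene's side of the line does not give its sign on that scale: Olr1 in RFP-, at -1.77, stays negative, and Apoe and Ch25h in RFP-, at -2.14 and -1.98, become 0.03 and 0.09.

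Scaling decided the sign of most lower genes. Setting the macrophage markers level in all libraries moved the median of all genes by 1.85 in RFP+ and by 1.94 in RFP-. On that scale 26 lipid genes were higher and 0 lower in RFP+ (85.6% and 2.44% of all genes), and 27 were higher and 0 lower in RFP- (85% and 2.36% of all genes). Of the 14 genes that fell in RFP+ as deposited, 9 then had a positive difference, among them Trem2 (0.67), Tyrobp (0.25), Msr1 (0.73), Abcg1 (0.23) and Npc2 (0.72), and 5 stayed negative without passing. The 5 were Apoe (-0.62), Abca1 (-0.08), Nr1h3 (-0.18), Olr1 (-0.60) and Acsl1 (-0.08). Of the 15 in RFP-, 12 turned, and those that stayed negative were Abca1 (-0.38), Acsl1 (-0.41) and Olr1. Upper-quartile scaling moved the median by -0.10 in RFP+ and -0.15 in RFP-, quantile normalization by -0.17 and -0.19, and neither turned a called gene.

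**Figure D5:**
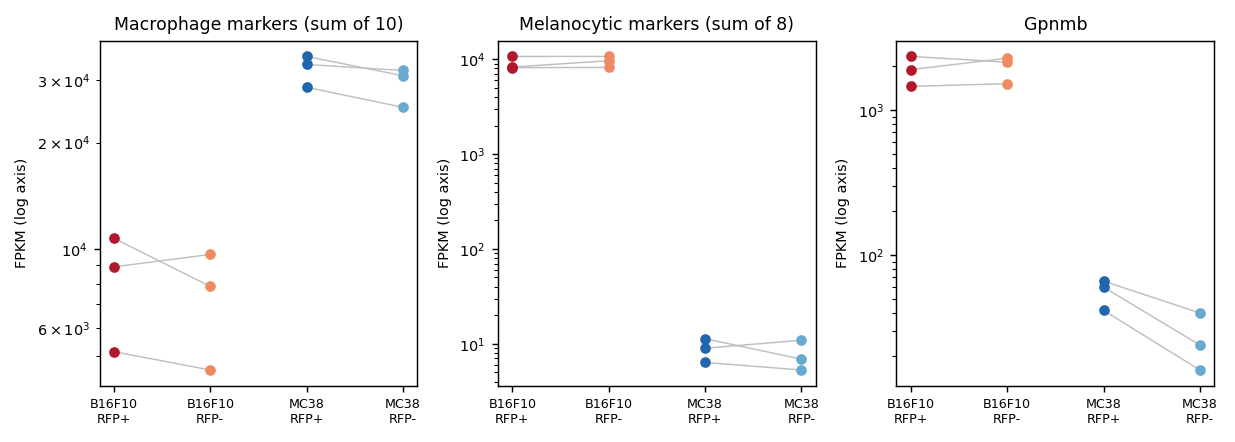
Summed FPKM of 10 macrophage markers (left) and 8 melanocytic markers (middle), and FPKM of Gpnmb (right), in each library on log axes, with lines joining libraries of the same title number. B16F10 libraries hold 4559 to 10737 FPKM of macrophage markers and 8174 to 10722 FPKM of melanocytic markers, MC38 libraries 25161 to 35033 FPKM and 5.29 to 11.3 FPKM, and Gpnmb separates as the melanocytic markers do.

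Other genes of the pathway were read from the same fits, as a list of 78 names of which 76 were in the tables and 67 met the filter. The names were gathered with earlier results of these data known. In B16F10 0 of the 67 passed in limma between the gates, where 0.178% of all genes did, and 1 did with the block, where 1.36% of all genes did. In MC38 1 of 67 rose (1.49%, where 0.0254% of all genes passed), Hilpda, a droplet protein induced by low oxygen that restrains the lipase ATGL (1.41 ± 0.17, limma adjusted p = 0.011). Hilpda was 366, 487 and 436 FPKM in RFP+ and 231, 295 and 231 FPKM in RFP- libraries of B16F10, where it passed with the block (0.76 ± 0.17, limma adjusted p = 0.167 without and 0.00713 with the block). On the mean of both tumours it rose by 1.09 ± 0.12 (adjusted p = 0.00168), and so did Pla2g7, a lipoprotein-bound phospholipase, by 0.80 ± 0.15 (adjusted p = 0.0415). Pla2g7 was 124, 118 and 116 FPKM in RFP+ and 65, 46.5 and 99.2 FPKM in RFP- libraries of B16F10, and 845, 908 and 781 FPKM in RFP+ and 449, 595 and 443 FPKM in RFP- libraries of MC38, without overlap in either tumour. These 2 of 67 stand beside 0.449% of all genes, and with the block 3 of the 67 rose on that mean, where 1.92% of all genes passed. In the test of the tumours' RFP+ differences against each other 0 of the 67 passed, as did 0% of all genes.

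Between the tumours 40 of the 67 passed in RFP+ (24 higher and 16 lower in B16F10) and 42 in RFP- (26 higher and 16 lower), shares of 59.7% and 62.7% beside 55.2% and 59.7% of all genes. The largest were Ppargc1a, a coactivator of mitochondrial genes (log2 4.66 ± 0.24 in RFP+ and 4.16 ± 0.24 in RFP-), G0s2, an inhibitor of ATGL (3.02 ± 0.40 and 3.99 ± 0.40), the chaperones Fabp3 (2.72 ± 0.28 in RFP+) and Fabp7 (3.33 ± 0.25 in RFP-), the desaturase gene Scd2 (2.71 ± 0.18 and 2.63 ± 0.18) and Mitf (2.63 ± 0.36 and 3.02 ± 0.36). Pla2g7 fell by 2.81 ± 0.22 and by 2.86 ± 0.22. Mitf is the master factor of pigment cells, and the part of the melanocytic RNA in these values was not tested.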

How the data were processed

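Bulk RNA-seq of 12 libraries was analysed, 3 in each of 4 groups. Per the labels' protocols, RNA was taken up in TRI Reagent, amplified with a SMART-Seq HT kit and made into Nextera XT libraries. The authors deposited FPKM values per gene symbol, and the submitters' processing notes name TopHat2 2.1.1, Bowtie2 2.2.8, SAMtools 0.1.18, Cuffdiff 2.2.1 and the build mm10. For annotation, strand setting and scaling across libraries, nothing is given in the sources used here. Read depth is unknown, and the low FPKM steps give only relative depth.

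Genes of at least 1 FPKM in at least 3 libraries (11808 of 24346) were tested on log2(FPKM + 1) with limma 3.58.1 in R 4.3.3 (a model of the 4 groups, eBayes with a trend), with Benjamini-Hochberg adjustment over all genes tested and a threshold of 0.05. All adjusted p-values in the text are from limma. Same-numbered libraries of a tumour deviated together (r = 0.228 to 0.443, against -0.306 to 0.0178 for other numbers), so a fit with the number as a replicate block is given too. For tumour comparisons the block was random, with a correlation of 0.291.

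The members and gene lists were chosen with earlier results of these data known. A member's test is named where it passed in either fit, or where it is among the 4 largest that did not and averages at least 5 FPKM. Of the further genes up to 6 per comparison are named. Data were also simulated from each gene's mean and residual spread over all 12 libraries, with changes added in B16F10 RFP+ (11421 genes). There 66% of changes of log2 1 and 96% of those of log2 2 passed, and 59% and 96% with the block. The changes were put into genes of higher level, and same-numbered simulated libraries did not deviate together. These shares therefore do not give the recovery in the real libraries. Alternatives were 10 settings and 12 fits with a library left out, plus 1 added after the data were seen. Promoter windows came from RefSeq (GRCm38.p6). Figures were drawn with matplotlib 3.10.9 in Python 3.11.15.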

Additional observations from a re-analysis of the deposited data

Results flagged for a closer look

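Lpl and Cpt1a had RFP+ minus RFP- differences of opposite sign in the tumours in every pair, and neither passed in either tumour. They were picked by that rule of signs. The share of all genes that meet it was not counted, so it is not read as a trait of these genes. Lpl was 85.8, 32.5 and 81.4 FPKM in RFP+ and 24.6, 30 and 57.5 FPKM in RFP- libraries of B16F10, higher in 3 of 3 pairs, by log2 1.76 (number 12), 0.11 (number 11) and 0.49 (number 3). In MC38 it was 10.7, 11.2 and 4.73 FPKM in RFP+ and 14.3, 21.3 and 6.9 FPKM in RFP- libraries, lower in 3 of 3 pairs. The log2 differences were 0.79 and -0.58 (limma adjusted p = 0.513 and 1, and 0.185 and 0.819 with the replicate block), and without the number 12 pair the B16F10 difference was 0.30. The difference between them, 1.36 ± 0.65, did not pass (limma adjusted p = 0.895, and 0.489 with the block). Cpt1a was 15.3, 12.4 and 21.3 FPKM in RFP+ and 10.4, 11.2 and 13.8 FPKM in RFP- libraries of B16F10, and 11.4, 14.4 and 11.9 FPKM in RFP+ and 13, 16.1 and 13.5 FPKM in RFP- libraries of MC38. Its differences were 0.42 and -0.17 (limma adjusted p = 0.497 and 1, and 0.215 and 1 with the block), and 0.59 ± 0.28 between them did not pass either (limma adjusted p = 0.895, and 0.556 with the block).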

How the results depend on the processing

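The share of all genes past the threshold in the same fit is given in brackets after each count of lipid genes. In B16F10 the count was 1 (0.178%). It was 0 with a pseudocount of 0.1 (0.0847%), without a filter (0.0352%), with macrophage marker scaling (0.22%) and with the compared groups alone (0.0423%), and 2 with a filter of 5 FPKM (0.282%), upper-quartile scaling (0.212%) or quantile normalization (0.178%). It was 5 with array weights (2.02%) or the replicate block (1.36%), 4 with the block and no number 12 pair (1.38%), and 0 to 2 with a library left out (0.0341% to 0.776%). In MC38 the count was 0 (0.0254%), against 1 with array weights (0.5%), 2 with the replicate block (0.44%) and 9 with the block and no number 12 pair (1.16%). On the mean of both tumours it was 3 (0.449%), against 1 with a pseudocount of 0.1 (0.305%), 0 without a filter (0.0654%) or with macrophage marker scaling (0.296%), 7 with array weights (2.24%) or the replicate block (1.92%), 12 with the block and no number 12 pair (2.77%), and 0 to 2 with a library left out (0.162% to 0.691%). In the tumour comparisons the counts were 24 in RFP+ (55.2%) and 26 in RFP- (59.7%), 22 to 24 (48% to 62.6%) and 21 to 27 (53.6% to 59.5%) with a library left out, and the block changed 1 call among them, that of Nr1h2.

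Macrophage marker scaling turned the sign of these log2 differences between the tumours, among genes with a named test. In RFP+ they became 0.668 for Trem2, 0.248 for Tyrobp, 0.23 for Abcg1, 0.734 for Msr1, 0.716 for Npc2, 0.966 for Acsl4, 0.102 for Lipe, 0.977 for Dgat2, 0.432 for Ch25h, 1.713 for Lipa and 1.562 for Pparg. In RFP- they became 0.942 for Trem2, 0.52 for Tyrobp, 0.034 for Apoe, 1.504 for Lipa, 0.44 for Abcg1, 0.977 for Nr1h3, 0.378 for Msr1, 0.895 for Npc2, 1.716 for Soat1, 0.531 for Acsl4, 0.713 for Lipe, 0.094 for Ch25h, 1.346 for Pparg and 1.763 for Cpt1a. Under the same scaling Lgals3 (1.99), Npc1 (1.83), Soat1 (1.84) and Pnpla2 (1.84) turned in RFP+ too, where their tests are not named. Of the named genes, Plin2 in RFP- became -0.047 under quantile normalization. With that normalization 13 lipid genes were positive in RFP-, against 18 as deposited. Pparg in RFP+ ran from -0.568 to 0.002 with a library left out. The causes were not tested. By the lowest FPKM steps the B16F10 libraries were the shallower ones, which limits genes near 1 FPKM most.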

Other observations

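Some lipid genes varied with the title number in both gates, and the labels do not say what a number stands for. In MC38 number 3, Olr1 stood at 14.5 FPKM for RFP+ and 9.67 FPKM for RFP-, against 1.85 to 3.43 FPKM in the other MC38 libraries. Ch25h of the same number stood at 58.6 FPKM for RFP+ and 76.2 FPKM for RFP-, against 24.7 to 33.7 FPKM. In B16F10, number 12 had the highest Trem2 (173 FPKM in RFP+ and 169 FPKM in RFP-) and the highest Apoe (5411 FPKM in RFP+ and 6220.3 FPKM in RFP-). These genes were chosen after their values were seen.

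Exons of 7 lipid genes overlap exons of another gene in GENCODE vM21. Where the other gene is on the opposite strand, reads of the pair cannot be told apart if the counting did not use strand. Where it is on the same strand, use of strand would not separate them. The 7 genes are Cd9 (218 of 2044 exon bases), Acsl1 (1039 of 10483), Lipe (918 of 5886), Mgll (167 of 5077), Ch25h (159 of 1387), Npc1 (601 of 11317) and, on the same strand, Nr1h3 (34 of 2515).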
